A study of Homo sapiens with 22 samples.

Results

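The red cell membrane skeleton is a protein mesh under the plasma membrane of erythroid cells. Its genes were followed here in haematopoietic progenitors that had been differentiated from the established human embryonic stem cell line H1. The 8 genes were chosen by name, with earlier results of these data known: SPTB, ANK1, EPB41, EPB42, ADD1, ADD2, TMOD1 and DMTN. Each has 1 row among the 60240 genes of the deposited table, and all 8 were among the 20115 that passed a filter on low counts.

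PolyA-selected RNA was sequenced in 22 libraries, 2 for each of 11 groups. The UT arm had no doxycycline and no ectopic MYC, and was sampled every other day of culture from day 10 to day 20. In the DOX arm doxycycline was added and drove ectopic MYC, a transcription factor that promotes cell growth, and samples were taken every other day from day 12 to day 20. All groups share the H1 line and carry the same batch label. No group had doxycycline without ectopic MYC, so effects of the drug and of MYC cannot be told apart. The sources used here give neither the promoter of the ectopic gene nor the number of clones nor when doxycycline was started. Whether the replicates of a group came from separate cultures is not in the labels, so each p-value reflects only how far these libraries vary, and that variation may be technical.

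In a red cell, long spectrin tetramers, which contain beta spectrin (SPTB), form the strands of the mesh. Ankyrin (ANK1) and protein 4.2 (EPB42) tie beta spectrin to the anion exchanger band 3 (SLC4A1) in the membrane. At the junctions, short actin filaments are held to spectrin by protein 4.1 (EPB41) and the adducins (ADD1, ADD2), bundled by dematin (DMTN) and capped at their slow-growing end by tropomodulin (TMOD1). Loss of spectrin, ankyrin, band 3 or protein 4.2 is known to cause hereditary spherocytosis, and loss of protein 4.1 or spectrin hereditary elliptocytosis. The family is not exclusive to red cells: ADD1 and EPB41 are made in many cell types, and platelets have a spectrin and actin skeleton of their own.

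Deposited totals ran from 24730502 to 53508548 estimated counts per library. MYC itself, measured without telling the ectopic from the endogenous copy, was higher in DOX when days 12 to 20 were averaged (log2 fold change 0.83, SE 0.11, adjusted p = 4.3e-06). On day 20 the MYC ranges overlapped, at 28.7 to 34.6 CPM (a gene's counts relative to the scaled size of its library) in UT and 28.9 to 49.6 in DOX (adjusted p = 0.39). The progenitor marker CD34 fell from 106 to 111 CPM on UT day 10 to 1.98 to 8.12 CPM on UT day 20. The progenitor list as a whole did not follow it: 4 of its 8 tested genes rose and 4 fell between these days. Of all genes tested, 28.1% were called higher and 34.2% lower. The summed level of the list was 1022 to 1045 CPM on UT day 10 and 1060 to 1299 CPM on UT day 20. Mitochondrially encoded genes held 8.92% ± 0.58 of counts on UT day 10 and 72.7% ± 0.33 on UT day 20, against 11.3% ± 1.28 on DOX day 12 and 57.0% ± 2.43 on DOX day 20 (SD, n = 2 libraries each). All levels are CPM scaled by TMM, a factor computed so that most genes do not differ between libraries. Scaling by library totals alone instead moved the median of all genes by 0.52 in the averaged DOX minus UT log2 fold change and by -2.16 between UT days 10 and 20. For the members, directions that this alternative turns are named with the result or in the closing sections. MYC and the genes of the lists were not recomputed under it.

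Upstream windows of 2 members are shown because the genes moved in opposite directions between the arms: SPTB was the most strongly raised member in DOX, and ADD1 was the one member called lower, though its direction turns when libraries are scaled by their totals alone. Each window holds the 250 bases before a RefSeq start site on GRCh38.p14, written 5′ to 3′ on the gene's strand. Capitals mark AGATAA, with T also allowed as its first letter and G as its last, on either strand, a motif of the GATA factors of erythroid cells.
SPTB, chr14:64879908-64880157, minus strand: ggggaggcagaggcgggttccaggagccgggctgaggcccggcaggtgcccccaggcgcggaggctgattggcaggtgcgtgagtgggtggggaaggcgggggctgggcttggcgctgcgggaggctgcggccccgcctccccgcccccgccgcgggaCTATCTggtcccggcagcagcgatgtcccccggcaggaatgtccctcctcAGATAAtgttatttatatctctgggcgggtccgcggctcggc
ADD1, chr4:2843594-2843843, plus strand: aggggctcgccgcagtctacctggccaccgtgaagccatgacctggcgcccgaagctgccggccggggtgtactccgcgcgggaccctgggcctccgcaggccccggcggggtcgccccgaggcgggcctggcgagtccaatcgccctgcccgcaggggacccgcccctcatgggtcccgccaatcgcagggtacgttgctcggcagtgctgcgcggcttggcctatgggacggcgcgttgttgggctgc

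The SPTB window held 2 GATA matches, which begin 92 and 42 bases before the start site. The ADD1 window held 0, and each of these windows held 1 CACCC. RefSeq windows were matched for 6 of the 8 members, 10 windows in all. The EPB42 window also held 2 matches, 208 and 61 bases upstream, 1 of 2 windows held 1 match for EPB41 and for ADD2, and the TMOD1 windows and the second SPTB window held 0. Of all 35116 promoter windows of this length, 22.3% held at least 1 GATA match. None of the 10 windows held CACGTG, the letters bound by MYC with its partner MAX, which 6.34% of all windows held. CACCC, the letters bound by factors such as KLF1, was found on either strand in 54.7% of all windows. A match describes letters only, and binding was not measured.

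On UT day 10 the members differed widely in abundance. Per kilobase of the longest annotated transcript, DMTN stood at 40.2 CPM, EPB41 at 34.0, ADD1 at 17.3 and ANK1 at 10.98 (means of 2 libraries). SPTB was lower, at 3.70 CPM per kilobase, and TMOD1 (0.595), EPB42 (0.35) and ADD2 (0.129) were lower still. Over the union of all annotated exons in place of the longest transcript, ANK1 (8.62) stood above ADD1 (6.82). Of the genes of mature red cells, 2 were low: band 3 did not exceed 2.86 CPM in any library, and HBB, the adult beta globin, did not exceed 0.405 CPM. Embryonic and fetal globins were present, with HBE1 at up to 953 CPM and HBG2 at up to 1112 CPM. CD34 was high on UT day 10 and low on UT day 20, but the progenitor list as a whole did not follow it. Its summed level was 1022 to 1045 CPM on UT day 10 and 1060 to 1299 CPM on UT day 20.

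Without doxycycline, SPTB, ANK1, EPB41, DMTN and ADD2 fell with culture. Between UT day 10 and UT day 20, 5 of 8 members fell and 0 rose, where 62.3% of all genes tested were called, 34.2% lower and 28.1% higher. ADD1, EPB42 and TMOD1 were not called, with log2 fold changes of 0.25, -1.63 and -0.65. With doxycycline, all 8 members were called lower on day 20 than on day 12, where 56.4% of all genes were called, 29.7% lower and 26.7% higher. Under library totals alone, 14451 genes were lower and 1453 higher in UT, with all 8 members called lower, and 11635 lower and 1790 higher in DOX. The median log2 fold change of the members was -2.55 in UT from day 10 and -1.96 in DOX from day 12, beside -0.24 and -0.08 over all genes tested. These spans differ, so the 2 arms are not compared by them. In bulk RNA, fewer cells of a type and less RNA per cell cannot be told apart.

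**Figure D1:**
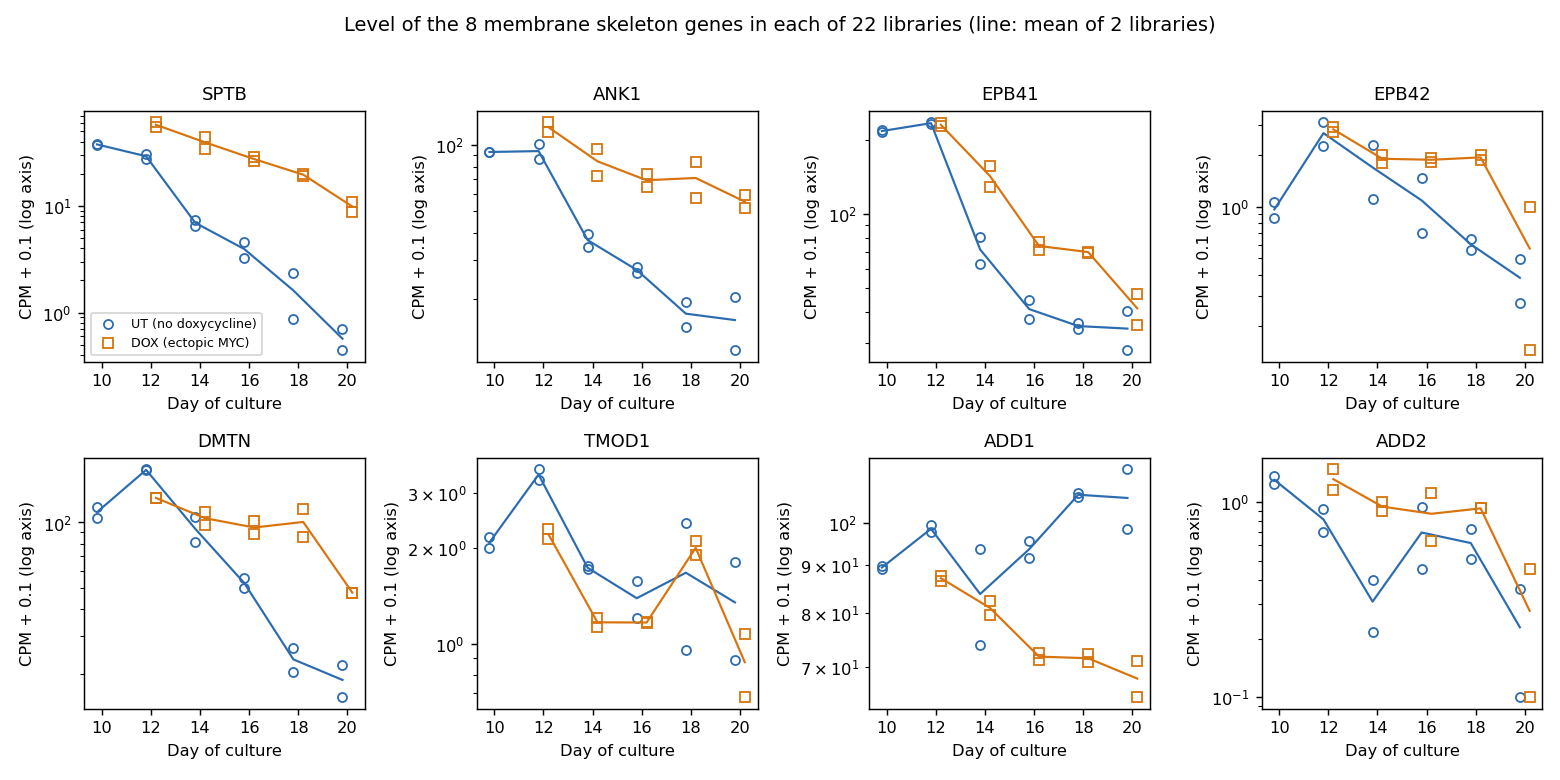
CPM + 0.1 (log axis) of each of the 8 genes against day of culture, 1 point per library, lines through the means of 2 libraries. SPTB in UT ends between 0.342 and 0.593 CPM on day 20, below DOX at 8.77 to 10.8 CPM, whereas ADD1 on that day, under TMM scaling, lies between 98.4 and 114 CPM in UT and between 64.9 and 71.0 CPM in DOX, an order that turns under library totals alone.

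Beta spectrin showed the largest called change among the members between the arms and from day 10 to day 20 in UT, though not within DOX. SPTB (ENSG00000070182.21, chromosome 14, 64746283 to 64879907, minus strand, GRCh38) stood in UT at 37.0 and 38.3 CPM on day 10, 27.5 and 30.8 on day 12, and 7.32 and 6.39 on day 14. It reached 4.52 and 3.15 CPM on UT day 16, 2.25 and 0.765 on day 18, and 0.593 and 0.342 on day 20. In DOX it stood at 54.6 and 60.8 CPM on day 12, 34.2 and 44.6 on day 14, 26.5 and 28.4 on day 16, 19.1 and 20.0 on day 18, and 10.8 and 8.77 on day 20. The arms did not overlap on any shared day, and every DOX library on days 12 to 20 lay above every UT library from day 14 on.

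SPTB fell 81.5-fold in UT from day 10 to day 20 (log2 fold change -6.35, SE 0.37, adjusted p = 6.8e-11), to 6 and 4 counts. In DOX it fell 5.89-fold from day 12 to day 20 (adjusted p = 3.5e-08). EPB42 fell 6.04-fold over these days, a value that rests on 1 and 17 counts on DOX day 20. For ADD2, also called lower, no fold is given at its low counts. Averaged over days 12 to 20, SPTB was 7.52-fold higher in DOX than in UT (log2 fold change 2.91, SE 0.13, adjusted p = 4.1e-12, 10 libraries per arm). For days 12, 14, 16, 18 and 20 the log2 fold changes were 0.98, 2.52, 2.84, 3.80 and 4.41. The last of these is 21.2-fold, with a 95% interval of 3.52 to 5.29 on the log2 scale. The day 12 difference was past the threshold (adjusted p = 0.016) but did not stay past it when any 1 of the 4 day 12 libraries was left out (adjusted p 0.086 to 0.25). The gap widened from day 12 to day 20 by 3.42 (SE 0.49, adjusted p = 0.00019).

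SPTB shares 3408 exonic bases with PLEKHG3 on the opposite strand, and whether counting used strand was not given in the sources used here. PLEKHG3 was at 56.7 to 60.3 CPM on UT day 20, where SPTB was at 0.342 to 0.593, and at 38.8 to 42.4 CPM on DOX day 20. The part of PLEKHG3 reads in the SPTB values was not tested.

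SPTBN1, the beta spectrin of most other cells, stood at -0.18 in the averaged DOX minus UT log2 fold change (SE 0.07, adjusted p = 0.054). Taken within each library, where scaling cancels, the ratio of SPTB to SPTBN1 counts was 0.144 on UT day 10, 0.203 on UT day 12 and 0.00637 on UT day 20. In DOX it was 0.336 on day 12, 0.529 on day 16 and 0.211 on day 20 (means of 2 libraries). Over days 12 to 20 the ratio was 8.43-fold higher in DOX, a log2 difference of 3.08, and it was higher on 5 of 5 days. An exact two-sided permutation within days gave p = 0.000257, the smallest that its 7776 arrangements allow (adjusted p = 0.0015 over 6 ratios). On days 12 and 14 alone the difference was 1.22, where the smallest p of 36 arrangements is 0.056.

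**Figure D2:**
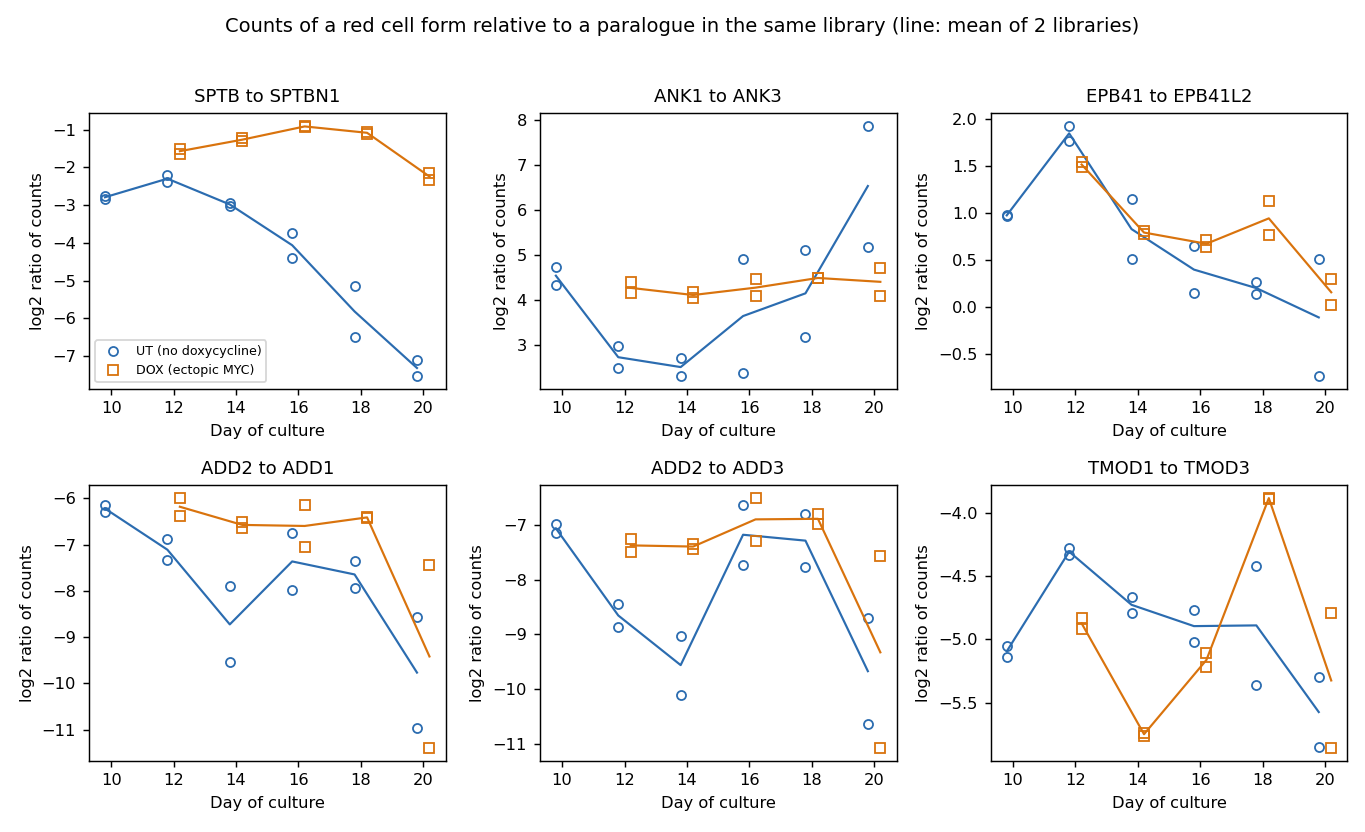
Log2 ratio of the counts of a red cell form to those of a paralogue in the same library, against day of culture, 1 point per library and lines through means of 2. For SPTB to SPTBN1 the arms part from day 12 on and UT reaches -7.53 to -7.09 on day 20, while DOX stays between -2.33 and -0.90 on all 5 days.

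The ankyrin complex comes next in the mesh. ANK1 (ENSG00000029534.21, chromosome 8, 41653220 to 41896762, minus strand) was in UT at 92.7 and 93.4 CPM on day 10, 86.5 and 101 on day 12, and 39.5 and 34.4 on day 14. On UT days 16, 18 and 20 it was at 26.1 and 27.8, 14.8 and 19.3, and 11.6 and 20.3 CPM. In DOX it was at 114 and 127 CPM on day 12, 72.5 and 96.3 on day 14, 64.5 and 74.0 on day 16, 57.6 and 84.2 on day 18, and 51.5 and 59.1 on day 20. DOX libraries lay above UT libraries on every shared day.

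ANK1 fell 5.81-fold in UT from day 10 to day 20 (log2 fold change -2.54, SE 0.23, adjusted p = 2.2e-08) and 2.18-fold in DOX from day 12 to day 20 (adjusted p = 0.00015). Averaged over the shared days it was 2.55-fold higher in DOX (log2 fold change 1.35, SE 0.10, adjusted p = 1.8e-09). The difference was 0.36 on day 12 (adjusted p = 0.47) and 1.19, 1.36, 2.05 and 1.79 on days 14 to 20, each past the threshold. It grew by 1.43 from day 12 to day 20 (SE 0.31, adjusted p = 0.006). ANK3, an ankyrin of other tissues, was at 12.9 to 15.4 CPM on UT day 12 and 0 to 0.513 on UT day 20. The log2 ratio of ANK1 to ANK3 counts differed by 0.40 between the arms (exact permutation p = 0.46, adjusted p = 0.55), and by 0.88 (adjusted p = 0.024) with a pseudocount of 5 counts in place of 0.5. It ranged from 0.13 to 0.67 when 1 library was left out and was 1.57 on days 12 and 14 alone.

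EPB42 (ENSG00000166947.15, chromosome 15, 43197227 to 43221125, minus strand), which steadies the link of ankyrin to band 3, was rare. It ranged from 0.171 to 3.01 CPM in UT, highest on day 12, and from 0.0442 to 2.83 CPM in DOX. On day 18, UT had 0.544 and 0.459 CPM and DOX 1.90 and 1.78, which is 3.69-fold (log2 1.88, SE 0.69, adjusted p = 0.041). That call was lost when any 1 of the 4 day 18 libraries was left out (adjusted p 0.089 to 0.16). On day 20, DOX replicate 1 had 1 count and replicate 2 had 17, and the arms overlapped. The averaged difference was 0.74 (SE 0.30, adjusted p = 0.0499), at the edge of the threshold. It was 0.095 (adjusted p = 0.97) without DOX day 20 replicate 2, and 0.94 (adjusted p = 0.0021) without replicate 1. In DOX from day 12 to day 20, EPB42 fell by 2.59 on the log2 scale (SE 0.67, adjusted p = 0.0029). Without DOX day 20 replicate 1 it fell by 1.64, and without replicate 2 by 5.89.

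At the junctions, EPB41 (ENSG00000159023.22, chromosome 1, 28887091 to 29120046, plus strand) was among the most abundant members. Under TMM scaling it had a shorter-lived difference. In UT it was at 215 and 219 CPM on day 10, 235 and 232 on day 12, 80.7 and 62.8 on day 14, and 44.9 and 37.3 on day 16. On UT days 18 and 20 it was at 34.1 and 36.0, then 40.6 and 28.0 CPM. In DOX it was at 226 and 233 CPM on day 12, 129 and 156 on day 14, 76.9 and 71.4 on day 16, 69.8 and 70.4 on day 18, and 47.4 and 35.5 on day 20. The arms were apart on days 14 to 18 and overlapped on days 12 and 20.

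For days 12, 14, 16, 18 and 20 the log2 fold changes of EPB41, DOX minus UT, were -0.02, 0.99, 0.85, 1.00 and 0.28 (adjusted p = 0.25 for the last). On days 14 to 18 it was past the threshold. Averaged, EPB41 was 1.54-fold higher in DOX (0.62, SE 0.08, adjusted p = 1.6e-06). It fell 6.35-fold in UT from day 10 to day 20 (adjusted p = 4.5e-10) and 5.55-fold in DOX from day 12 to day 20 (adjusted p = 2.0e-09). The ratio to EPB41L2, its relative in other tissues, differed by 0.18 between the arms (exact permutation p = 0.28, adjusted p = 0.43).

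DMTN (ENSG00000158856.18, chromosome 8, 22048995 to 22082527, plus strand) started on the other side. In UT it was at 118 and 105 CPM on day 10, 176 and 174 on day 12, 106 and 81.4 on day 14, and 55.4 and 49.6 on day 16. On UT days 18 and 20 it was at 20.3 and 26.3, then 15.5 and 21.9 CPM. In DOX it was at 129 and 130 CPM on day 12, 97.6 and 112 on day 14, 88.4 and 101 on day 16, 85.9 and 115 on day 18, and 47.4 and 47.4 on day 20. UT libraries were above DOX on day 12, the arms overlapped on day 14, and DOX was above UT from day 16 on.

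The day 12 difference of DMTN was -0.43 (SE 0.17, adjusted p = 0.22), and the differences on days 16, 18 and 20 were 0.85, 2.10 and 1.34, all past the threshold. Averaged, DMTN was 1.75-fold higher in DOX (0.80, SE 0.08, adjusted p = 9.2e-08). Over days 12 and 14 alone it was at -0.13 (SE 0.12, adjusted p = 0.47). The change from day 12 to day 20 was 1.77 (SE 0.25, adjusted p = 0.00017). DMTN fell 5.94-fold in UT from day 10 to day 20 (adjusted p = 1.3e-09) and 2.74-fold in DOX from day 12 to day 20 (adjusted p = 1.1e-06). These spans differ, and in UT the mean on day 12 was 157% of that on day 10.

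ADD1 (ENSG00000087274.17, chromosome 4, 2843857 to 2930076, plus strand), an adducin of most cell types, did not follow the others. In UT it was at 89.8 and 89.1 CPM on day 10, 99.3 and 97.5 on day 12, 93.6 and 73.9 on day 14, and 95.6 and 91.5 on day 16. On UT days 18 and 20 it was at 108 and 106, then 98.4 and 114 CPM. In DOX it was at 87.6 and 86.5 CPM on day 12, 79.5 and 82.4 on day 14, 72.4 and 71.1 on day 16, 72.2 and 70.8 on day 18, and 64.9 and 71.0 on day 20. UT libraries were above DOX libraries on all shared days but day 14.

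Averaged, ADD1 was 1.29-fold lower in DOX under TMM scaling (log2 fold change -0.37, SE 0.05, adjusted p = 7.8e-06), but at 0.17 under library totals alone. The difference was -0.38 on day 16, -0.58 on day 18 and -0.64 on day 20, each past the threshold under TMM, and 0.55, 0.33 and 0.27 under library totals alone. The day 16 call was lost without UT replicate 1 (adjusted p = 0.086), DOX replicate 1 (0.066) or DOX replicate 2 (0.091) of that day. In UT its change from day 10 to day 20 was 0.25 (SE 0.12, adjusted p = 0.069) under TMM and -1.94 under library totals alone. In DOX it fell by 0.36 from day 12 to day 20 (SE 0.11, adjusted p = 0.013), a call lost without DOX day 20 replicate 1 (adjusted p = 0.070).

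ADD2 (ENSG00000075340.23, chromosome 2, 70607618 to 70768225, minus strand), the adducin of red cells and neurons, was scarce, with 0 to 106 counts per library. On UT day 10 it had 76 and 65 counts, on UT day 20 0 and 3, and on DOX day 20 8 and 0. The fall in UT was called (adjusted p = 0.012), as was that in DOX (adjusted p = 0.013), and no fold is given at these counts. The first was lost without UT day 20 replicate 1 (adjusted p = 0.095), the other without DOX day 12 replicate 2 (0.054) or DOX day 20 replicate 2 (0.087). The averaged difference between the arms was 0.85 (SE 0.39, adjusted p = 0.072). On day 14 UT had 0.117 and 0.300 CPM and DOX 0.795 and 0.895, with no overlap (log2 fold change 2.00, SE 0.76, adjusted p = 0.058). Count ratios of ADD2 to ADD1 and to ADD3, the third adducin, had higher log2 means in DOX on 5 of 5 days. Over these days they differed by 1.09 and 0.90 (exact permutation p = 0.042 and 0.058, adjusted p = 0.12 for both). On day 20 the direction rests on 0 and 3 counts of ADD2 in UT and 8 and 0 in DOX. With a pseudocount of 5 the ratio of ADD2 to ADD1 differed by 0.80 (adjusted p = 0.017).

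TMOD1 (ENSG00000136842.14, chromosome 9, 97501180 to 97601748, plus strand) was also low, at 0.791 to 3.45 CPM in UT and 0.578 to 2.20 CPM in DOX. UT day 12 was its highest group, at 3.19 and 3.45 CPM, apart from DOX day 12 at 2.03 and 2.20. The averaged difference was -0.40 (SE 0.19, adjusted p = 0.081), and 0.14 under library totals alone. No single day was called, and the ratio to TMOD3, the tropomodulin of most tissues, differed by -0.12 (exact permutation p = 0.59). In DOX, TMOD1 fell by 1.43 from day 12 to day 20 (SE 0.43, adjusted p = 0.0083), which was not past the threshold without DOX day 20 replicate 2 (adjusted p = 0.075). TMOD1 shares 1669 exonic bases with TSTD2 on the opposite strand, which was at 8.38 to 17.2 CPM, and the part of its reads in these low counts was not tested.

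**Figure D3:**
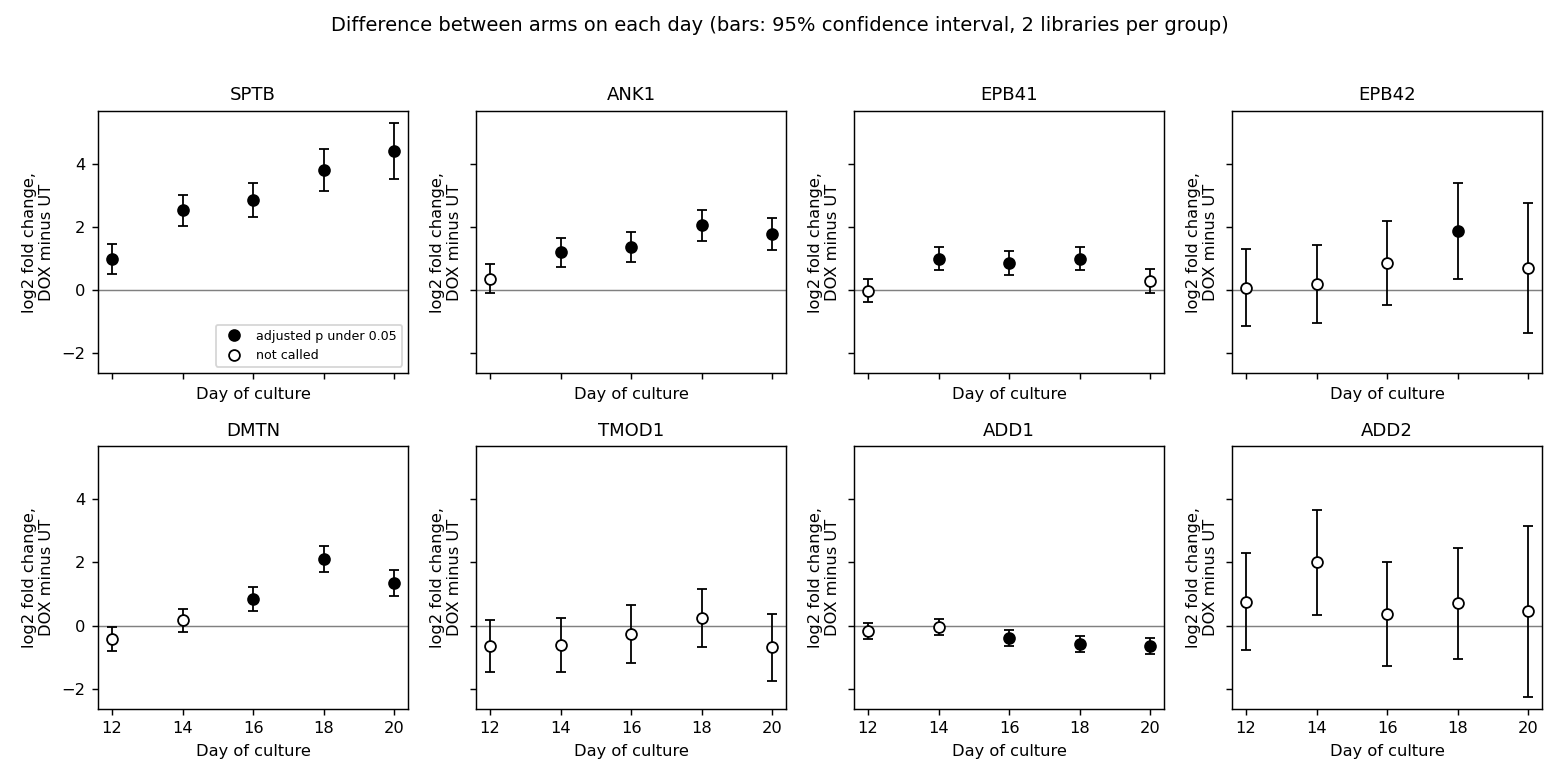
Log2 fold change, DOX minus UT, on each shared day for the 8 genes, with 95% confidence intervals (11 residual degrees of freedom) and filled points where the adjusted p was under 0.05. SPTB climbs from 0.98 to 4.41, DMTN passes from -0.43 to 1.34 with its highest point of 2.10 on day 18, and EPB41 returns to 0.28 on day 20.

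Counted together, 5 of 8 members were higher in DOX over days 12 to 20 and 1 was lower, where 52.9% of all genes were called, 29.8% higher and 23.0% lower. The 5 include EPB42 at the edge of the threshold, and the 1 lower, ADD1, is not lower under library totals alone. Under library totals alone 7 were higher, where 11581 of the 20115 genes tested were higher and 1609 lower. On day 12, 1 of 8 was called, SPTB, which was higher, beside 3.11% of all genes (0.845% higher, 2.26% lower). On day 14, 3 of 8 were called, all higher, beside 27.0% (15.3% higher, 11.7% lower). Day 16 had 4 higher and 1 lower, beside 39.9% (21.2% higher, 18.7% lower). Day 18 had 5 higher and 1 lower, beside 35.8% (19.8% higher, 16.0% lower). On day 20, 3 were higher and 1 lower, beside 27.8% (15.9% higher, 11.9% lower). The lower member on days 16, 18 and 20 was ADD1, which was not lower under library totals alone. The median log2 fold change of the members was 0.77 when averaged, 0.03 on day 12 and 1.44 on day 18, beside 0.08, 0.03 and 0.08 over all genes. As the members were chosen with earlier results of these data known, no test is drawn from these counts.

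The difference between the arms varied between days in 5 of 8 members, where 31.4% of all genes did: SPTB, ANK1, EPB41, DMTN and ADD1. The ADD1 call was lost on leaving out any 1 of 10 of the 20 libraries (adjusted p up to 0.084). From day 12 to day 20 the gap grew in 3 of 8, SPTB, DMTN and ANK1, where 8.96% of genes changed, 5.62% up and 3.34% down. Within UT, 7 of 8 members varied with day, all but ADD1 (adjusted p = 0.055), beside 72.8% of all genes. Within DOX, 6 of 8 varied, all but ADD1 (adjusted p = 0.052) and ADD2 (adjusted p = 0.12), beside 59.8% of all genes. Among these, the calls of ADD2 and TMOD1 in UT and of EPB42 and TMOD1 in DOX were each lost on leaving out 1 of several libraries (adjusted p up to 0.18).

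**Figure D4:**
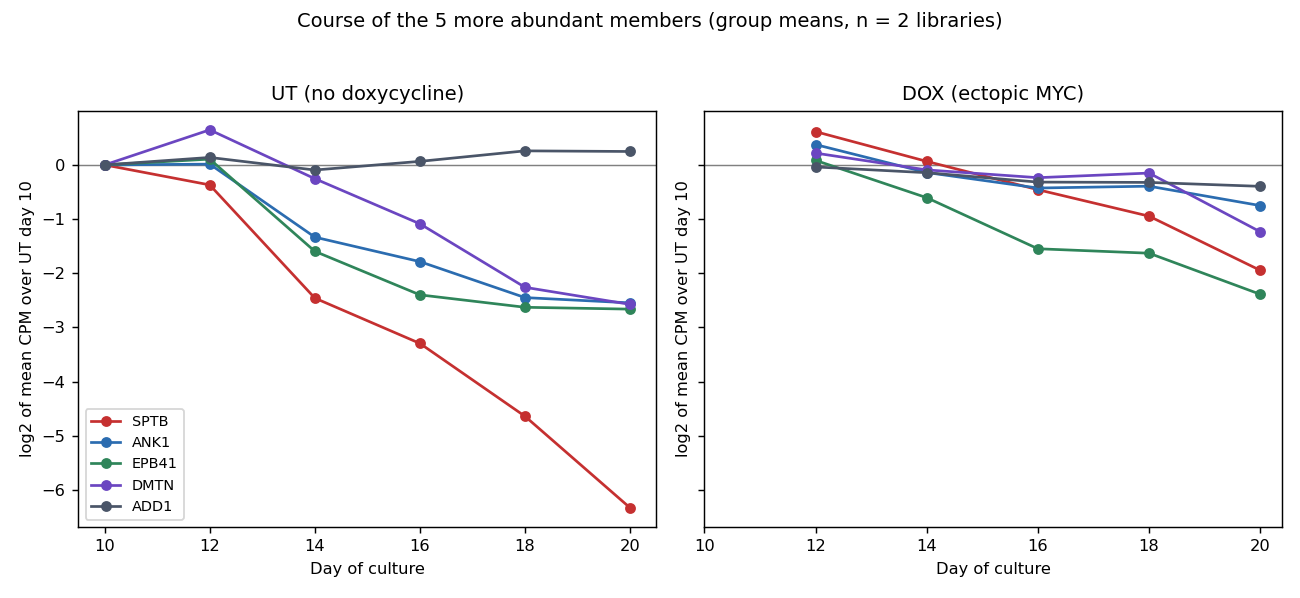
Log2 of the mean CPM of each group over the mean of UT day 10, against day of culture, for the 5 more abundant members, in UT and in DOX (n = 2 libraries per point). In UT the curves of SPTB, ANK1, EPB41 and DMTN end between -6.33 and -2.55 and ADD1, under TMM scaling, ends above 0, and in DOX on day 20 SPTB is at -1.95, EPB41 at -2.39, DMTN at -1.23 and ANK1 at -0.75.

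The members followed different courses relative to day 10. On UT day 14, SPTB was at 18.2% of its mean on UT day 10, EPB41 at 33.1% and ANK1 at 39.7%, while DMTN was at 83.8%, down from 157% on UT day 12. On UT day 12 ANK1 was at 101%, EPB41 at 108% and SPTB at 77.4%. On UT day 20, SPTB was at 1.24%, EPB41 at 15.8%, DMTN at 16.8% and ANK1 at 17.1%. On DOX day 18, DMTN was at 90.1%, ANK1 at 76.2%, SPTB at 51.9% and EPB41 at 32.3% of the UT day 10 mean. Already on DOX day 14 EPB41 was at 65.7%, while DMTN was at 93.8%, ANK1 at 90.7% and SPTB at 105%.

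Ranked by level, SPTB was highest on DOX day 12, then DOX day 14 and UT day 10, whose ranges overlapped, then UT day 12 and DOX day 16, which overlapped as well. From there the order was DOX day 18, DOX day 20, then UT days 14, 16, 18 and 20, with no overlap between neighbours. For ANK1, DOX day 12 stood alone at the top, and the next 5 groups, UT days 12 and 10 and DOX days 14, 18 and 16, each overlapped the next. DOX day 20 followed, then UT days 14, 16, 18 and 20, of which the last pair overlapped. DMTN was highest on UT day 12, followed by DOX day 12, and EPB41 on UT day 12 and DOX day 12, which overlapped. Under TMM scaling ADD1 was highest on UT days 18 and 20, which overlapped, and lowest on DOX day 20, but under library totals alone it fell in UT from day 10 to day 20, so that this order does not hold there.

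Across the 22 libraries, log2 CPM of SPTB and ANK1 had a Pearson r of 0.95, SPTB and DMTN 0.90, and SPTB and EPB41 0.83, while SPTB and ADD1 had -0.52. These points share the arms and days, so the values describe the course and carry no test. They are under TMM and were not recomputed under library totals alone. Under that scaling ADD1 changed by -1.94 in UT from day 10 to day 20, so its negative value may not hold there. By the same measure, the genes closest to SPTB among 11102 searched were PDCD6IP (0.98) and PDE5A (0.97). For ANK1 they were HERC2 (0.98) and TPP2 (0.97), for EPB41 CD46 and LRBA (0.99 both), and for DMTN MFAP3L and SERPINE2 (0.99 both). For ADD1 they were NFATC2 and PIK3CG (0.90 both). EPB42 was closest to RAB32 (0.87) and FHL2 (0.86), TMOD1 to GNG7 (0.87) and IGLON5 (0.86), and ADD2 to ZNF555 and ZNF543 (0.81 both).

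Of 12 partners of the skeleton, 7 were higher and 2 lower in DOX when averaged, with a median log2 fold change of 0.32, where 52.9% of all genes were called, 29.8% higher and 23.0% lower, with a median of 0.08. RHAG, the Rh-associated membrane protein, was higher by 2.61 (SE 0.10, adjusted p = 7.5e-13). It was at 129 to 142 CPM on UT day 10 and 0.495 to 1.11 on UT day 20, against 7.72 to 10.4 on DOX day 20. TPM1, a tropomyosin of the short actin filaments, was higher by 1.11 (SE 0.11), and the Kell blood group protein KEL by 1.03 (SE 0.10). Actin itself, ACTB, the most abundant of them, was lower by 0.50 on the log2 scale (-0.50, SE 0.07, adjusted p = 7.8e-06). SLC4A1, the band 3 anchor, was at -0.34 (SE 0.32, adjusted p = 0.40). Of 19 paralogues used outside red cells, 4 were higher and 9 lower (median -0.18) beside the same shares of all genes, among them ABLIM3 at 1.24, ANK2 at 1.03 and SPTBN5 at -2.09. Counts for these lists and the marker lists are under TMM and were not recomputed under library totals alone, whose shift of 0.52 is about the size of the ACTB difference.

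Markers of several cell types moved with the arms and days. Of 18 erythroid markers, 15 were higher and 2 lower in DOX, and of 12 megakaryocyte markers 12 were higher, where 29.8% of all genes were called higher and 23.0% lower. GYPB, a glycophorin of the red cell surface, was higher by 2.95 (SE 0.21). The summed level of the erythroid list was 2929 to 2954 CPM on UT day 10, 343 to 415 on UT day 20, 2957 to 3409 on DOX day 12 and 842 to 1008 on DOX day 20. That of the megakaryocyte list was 4087 to 4265, 269 to 302, 4890 to 5246 and 718 to 815 CPM in the same groups. On UT day 12 the erythroid list stood at 3155 to 3480 CPM, overlapping DOX day 12. The megakaryocyte list stood at 7117 to 7403 CPM on UT day 12, above DOX day 12. On day 14 the erythroid list was at 1977 to 2405 CPM in UT and 1740 to 1896 in DOX. The mast cell, basophil and eosinophil list rose with culture. It was at 86.9 to 88.9 CPM on UT day 10, 20741 to 24646 on UT day 20 and 10989 to 11794 on DOX day 20. In the averaged comparison 11 of its 12 tested genes were lower in DOX, as were 9 of 12 neutrophil and 11 of 12 monocyte and macrophage markers. Endothelial markers were higher in 6 of 8, and of 8 progenitor markers tested 2 were higher and 3 lower. The part of these cell types, and of the mitochondrial share, in the results for the skeleton was not tested.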

How the data were processed

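PolyA RNA of 22 libraries was measured. Per the submitters' processing notes, Trim Galore 0.6.5, STAR and Salmon were used with hg38; their other versions, the annotation release and the strand setting are not given in the sources used here. What the authors deposited are expected counts of each gene without normalization (88.3% whole), rounded here to whole numbers. All columns were used.

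Genes were filtered with filterByExpr of edgeR 4.0.16 (minimum count 10) and libraries scaled by TMM. A quasi-likelihood model in which each of the 11 groups had its own coefficient, with 11 residual degrees of freedom, gave all 12 comparisons, with Benjamini-Hochberg adjustment over 20115 genes and calls at an adjusted p under 0.05. Ratios within libraries used a pseudocount of 0.5 counts and exact two-sided permutations within days. Positions and transcript lengths came from GENCODE 29, promoter windows from RefSeq (GRCh38.p14). Similar patterns were searched among protein-coding genes off the Y chromosome with a mean log2 CPM of at least 1, naming 2 per member. From each list, up to 4 called genes and the most abundant were named; MYC, CD34, single globins and other partners were named after their values were seen, as checks. Members and lists were chosen with earlier results of these data known. Sequences of chromosome 8 were not used here, and some genes of the lists are not reported here by name.

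Alternatives were DESeq2 size factors, library totals, 2 other filters, limma-voom (3.58.1), DESeq2 1.42.0, removal of mitochondrial genes, a replicate block, days 12 and 14 alone, only the groups compared, pseudocount 5, and leaving out each library, where a lone library was assumed to vary like the others. Scripts were tested on simulated data. The software was R 4.3.3 and, under Python 3.11.15, matplotlib 3.10.9, pandas 2.3.3 and numpy 2.4.6. Replicates differed by more than sampling noise.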

Additional observations from a re-analysis of the deposited data

Results flagged for a closer look

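The difference between DOX and UT varied between days in 5 members by edgeR's F test over 4 degrees of freedom of the arm by day interaction. Adjusted p was 7.17e-06 for DMTN, 6.33e-05 for SPTB, 0.00277 for ANK1, 0.0061 for EPB41 and 0.0285 for ADD1. The ADD1 result was lost on leaving out any 1 of 10 libraries (adjusted p up to 0.084). DMTN was above its UT level on days 16 to 20 and below it on day 12, though the day 12 difference was not called. Under TMM scaling EPB41 was apart from UT on days 14 to 18.

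The log2 difference between the arms grew from day 12 to day 20 by 3.42 for SPTB, 1.77 for DMTN and 1.43 for ANK1. In each of these the UT level fell further than the DOX level over the same days.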

How the results depend on the processing

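Counts of called genes and members and the 6 ratios were recomputed under 226 combinations with other settings, of which 205 kept their verdict; single members kept theirs in 758 of 830. With each library left out in turn, 298 of 316 and 697 of 784 kept theirs. The cause was not tested where a value changed, except that fewer libraries or days enter some settings.

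Library totals alone gave 11446 genes on day 18 (7203 with TMM), 11094 on day 20 (5584), 9541 for the change from day 12 to day 20 (1802) and 12049 that differed between days (6312). They gave 8 members between UT days 10 and 20, beside 14451 genes lower and 1453 higher, and 5 members for the change. They split the averaged calls into 11581 higher and 1609 lower, against 6002 and 4633 with TMM. Under them ADD1 turned to 0.17 averaged, 0.55, 0.33 and 0.27 on days 16, 18 and 20, -1.94 between UT days 10 and 20 and 0.51 for the change. TMOD1 turned to 0.14 averaged, 0.65 on day 16, 0.26 on day 20 and 0.97 for the change, and ADD2 to 0.69 for the change.

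On day 12, 625 genes were called, but 940 without a filter, 1530 with limma-voom, 1408 with DESeq2, 950 with the replicate block and 4742, with 5 members, when only the day 12 groups were fitted. DESeq2 called 2758 genes for the change. Fitting only the groups compared gave 4780 genes on day 18 and 2035 on day 20. limma-voom turned EPB42 to -0.39 and ADD2 to -0.26 on day 20, and EPB42 to -0.47 for the change. Averaged over days 12 and 14 alone, 5039 genes and 3 members were called and DMTN was at -0.13. On those days the log2 ratio of SPTB to SPTBN1 was 1.22, where p cannot go below 0.056, and that of EPB41 to EPB41L2 was -0.18. The other ratios on those days were 1.57 for ANK1 to ANK3, 1.54 for ADD2 to ADD1, 1.73 for ADD2 to ADD3 and -0.79 for TMOD1 to TMOD3. A pseudocount of 5 gave 0.88 for ANK1 to ANK3 and 0.80 for ADD2 to ADD1.

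With 1 library left out, called genes ranged from 56 to 217 on day 12, 2824 to 4156 on day 14, 3522 to 5392 on day 20 and 912 to 2372 for the change, and 0 to 0 members were called on day 12. The ratio of ADD2 to ADD1 ranged from 0.69 to 1.48, that of ADD2 to ADD3 from 0.54 to 1.25 and that of ANK1 to ANK3 from 0.13 to 0.67. Low members changed sign: ADD2 from -0.34 to 1.98 averaged, -0.15 to 1.12 on day 16, -5.58 to 6.05 on day 20 and -6.34 to 5.29 for the change. EPB42 ranged from -0.14 to 0.34 on day 12, -0.27 to 0.86 on day 14, -2.56 to 1.69 on day 20 and -2.64 to 1.61 for the change, and TMOD1 from -0.26 to 1.17 on day 18 and -0.48 to 0.63 for the change. Values near 0 did so as well: ADD1 from -0.20 to 0.14 and DMTN from -0.0025 to 0.37 on day 14, and EPB41 from -0.037 to 0.0044 on day 12.

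Same-numbered UT and DOX libraries deviated together with r of 0.50, 0.03, 0.18, 0.17 and 0.16 on days 12 to 20, so the numbers are not taken as a pairing. With the replicate block, EPB42 averaged had an adjusted p of 0.054, ADD2 on day 14 0.047, and ADD1 over days 0.044 in UT and 0.041 in DOX. Depth limits ADD2, EPB42 and TMOD1, with at most 106, 220 and 214 counts in a library.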

Other observations

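Of 12 erythroid transcription factors, 6 were higher and 3 lower in DOX over days 12 to 20. Of all genes, 29.8% were called higher and 23.0% lower. The median log2 fold change was 0.03 for the list and 0.08 over all genes. KLF1, a factor that activates globin and membrane genes in red cell precursors, was higher by 2.08 (SE 0.11, adjusted p = 2.9e-11). It was at 17.3 to 20.5 CPM on UT day 10, 1.29 to 1.80 on UT day 20, 21.7 to 28.2 on DOX day 12 and 7.67 to 8.09 on DOX day 20. GFI1B, a repressor of the erythroid and megakaryocytic lines, was higher by 0.69 (SE 0.08) and TAL1, their shared activator, by 0.63 (SE 0.08). IKZF1, known from lymphoid cells, was lower (-0.61, SE 0.06, adjusted p = 4.1e-08). GATA1, the factor whose letters were searched in the promoter windows, was higher by 0.40 (SE 0.06, adjusted p = 7.4e-06), and its ranges on day 20 were 38.2 to 43.2 CPM in UT and 39.4 to 40.7 CPM in DOX. All these values are under TMM and were not recomputed under library totals alone. That scaling shifts the averaged median of all genes up by 0.52, close in size to the differences of GATA1, TAL1, GFI1B and IKZF1. The shift runs with the sign of GATA1, TAL1 and GFI1B and against that of IKZF1.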
